A study of Mus musculus with 16 samples.

Results

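The glutamate-glutamine cycle of the hippocampus was followed through 9 genes of the 55335 in the count table. They encode the glutamine carriers Slc38a1, Slc38a2, Slc38a3 and Slc38a5, the glutamate transporters Slc1a1, Slc1a2 and Slc1a3, and the enzymes Glul and Glud1. The genes were chosen by name, with earlier results of these same counts known, among them the low Slc38a3 of CAY10566-infused 3xTg mice. Their own values are therefore given as a description, without p-values, and a call of one of them as a DEG says only on which side of the threshold it lay.

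Whole hippocampi of 16 female mice were sequenced, 4 in each of 4 groups, at 10 months of age. WT mice were C57BL/6J x 129S1, the background strain of the model, and were not described as littermates of the 3xTg mice. The study bought the WT and 3xTg mice as separate stocks and bred them in-house. Differences by transgene and by line therefore cannot be told apart. The 3xTg mice, labelled B6;129-Psen1tm1MpmTg(APPSwe,tauP301L)1Lfa/Mmjax, bore transgenes for human APP and human tau under the mouse Thy1.2 element, active in neurons, together with a mutant presenilin-1 knocked into the mouse gene. Every mouse had a pump infusing the lateral ventricle for 28 days. WT-D and 3xTg-D received vehicle (0.8% DMSO in artificial cerebrospinal fluid), while WT-S and 3xTg-S received the stearoyl-CoA desaturase (SCD) inhibitor CAY10566 at 80 µM in that vehicle. The sample titles and treatment labels name the Cayman compound, whereas a protocol text shared by the samples names another SCD inhibitor, ab142089. The groups are named here as the titles and treatment labels name them.

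Neurons release glutamate as their main excitatory transmitter. Astrocytes clear most of it through Slc1a2 (GLT-1) and Slc1a3 (GLAST), convert it to glutamine with glutamine synthetase (Glul), and release the glutamine through carriers that include Slc38a3 (SNAT3) and Slc38a5 (SNAT5). Neurons take up glutamine partly through Slc38a1 (SNAT1) and Slc38a2 (SNAT2), the second of which is also known as an amino-acid-regulated carrier of many cell types, and turn it back into glutamate. Slc1a1 (EAAC1) is the main neuronal glutamate transporter, and Glud1 (glutamate dehydrogenase) links glutamate to the tricarboxylic acid cycle.

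Reads on genes numbered 15413385 to 23590149 per mouse. The count of a gene is given as CPM, counts per 1000000 reads on genes after TMM normalization. Thy1, which the promoter element of the transgenes comes from, ranged from 517 to 625 CPM in WT and from 1566 to 2141 CPM in 3xTg mice, in accordance with every genotype label. A pair of libraries stood apart in the choroid plexus transcript Ttr, with 638 CPM in WT-D4 and 246 CPM in WT-S1, against 0.756 to 31.7 CPM in the other mice. All 9 genes passed the filter on low counts. A gene was counted as a DEG at an unadjusted p of 0.01 or less in edgeR's quasi-likelihood test. Each log2 fold change below is the second group minus the first and is followed by its standard error (SE).

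Levels between genes were compared per kilobase of annotated exon, as means ± SD over the 16 mice. Glul was the most abundant transcript, at 532 ± 68.4 CPM per kb, followed by Slc1a2 at 296 ± 25.7, Slc1a3 at 107 ± 9.99 and Glud1 at 73.5 ± 8.23. Slc1a1 and Slc38a2 came next at 21.5 ± 2.02 and 19.1 ± 2.53 CPM per kb. Slc38a1 stood at 9.56 ± 0.789, Slc38a3 at 8.01 ± 1.01 and Slc38a5 at 0.477 ± 0.249 CPM per kb. The ranges over mice overlapped between Slc1a3 and Glud1, between Slc1a1 and Slc38a2, and between Slc38a1 and Slc38a3, and not between the other neighbours in this order. Slc38a5 rested on 8 to 43 reads per mouse, so its values carry much more counting error than those of the other genes.

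**Figure D1:**
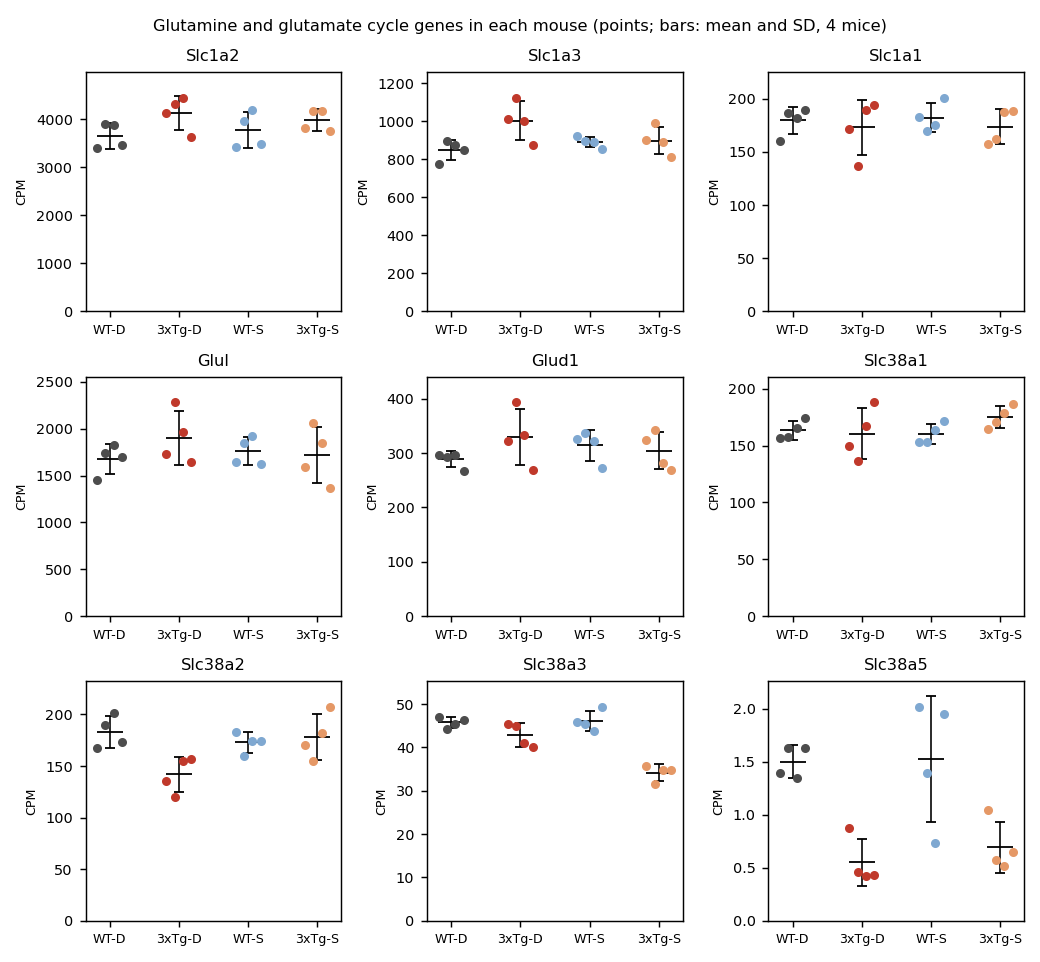
Level of each cycle gene in CPM (y axes from 0) in each of the 16 mice, by group (x axes). Points are mice, and the bars give mean and SD of 4 mice. The 3xTg-S mice lie lowest for Slc38a3, at 31.5 to 35.8 CPM, and the 3xTg-D mice lie below the WT-D mice for Slc38a2 and Slc38a5.

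Slc38a3 was lower in 3xTg-S than in every mouse of the other groups. This system N carrier of the astrocyte membrane (ENSMUSG00000010064.15, GRCm38 chromosome 9, positions 107650634 to 107669530, minus strand) had 47.1, 44.4, 45.4 and 46.3 CPM in the 4 WT-D mice. It had 45.4, 45.1, 41.1 and 40.1 CPM in 3xTg-D and 45.8, 45.5, 43.8 and 49.4 CPM in WT-S. In 3xTg-S it had 35.8, 31.5, 34.8 and 34.8 CPM. The 3 other groups overlapped each other, and no 3xTg-S mouse reached any of them. The group means ± SD (n = 4 each) were 45.8 ± 1.17 CPM for WT-D, 46.1 ± 2.35 for WT-S, 42.9 ± 2.71 for 3xTg-D and 34.2 ± 1.88 for 3xTg-S.

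The log2 fold change of Slc38a3 was −0.44 (SE 0.06) in WT-D/3xTg-S, a difference of −26.3%. It was −0.45 (SE 0.07) in WT-S/3xTg-S and −0.33 (SE 0.07) in 3xTg-D/3xTg-S. In the same unit it was −0.09 (SE 0.06) in WT-D/3xTg-D and 0.01 (SE 0.06) in WT-D/WT-S. The effect of CAY10566 in 3xTg minus that in WT, the genotype by treatment interaction over all 16 mice, was −0.34 (SE 0.09). Slc38a3 was a DEG in the 3 comparisons with 3xTg-S and in the interaction, and passed a Benjamini-Hochberg adjusted p of 0.05 in WT-D/3xTg-S and WT-S/3xTg-S only. Because these are bulk samples, fewer cells of a type and less RNA per cell cannot be told apart.

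Slc38a2 separated the vehicle-infused groups, with the lower values in 3xTg-D, and its 3xTg-S values reached the WT range. The gene (ENSMUSG00000022462.7, chromosome 15, 96687392 to 96699730, minus strand) encodes a system A carrier that moves glutamine with sodium. WT-D mice had 168, 189, 201 and 173 CPM, and 3xTg-D mice had 136, 120, 155 and 157 CPM, with no overlap. WT-S mice had 183, 160, 175 and 174 CPM, and 3xTg-S mice had 170, 154, 182 and 207 CPM, so both CAY10566-infused groups overlapped with WT-D. The 3xTg-S group overlapped with 3xTg-D as well, since 3xTg-S2 lay below 3xTg-D3 and 3xTg-D4. The log2 fold change was −0.37 (SE 0.09) in WT-D/3xTg-D and 0.33 (SE 0.11) in 3xTg-D/3xTg-S. It was −0.05 (SE 0.09) in WT-D/3xTg-S, 0.03 (SE 0.09) in WT-S/3xTg-S and −0.08 (SE 0.07) in WT-D/WT-S. The interaction was 0.41 (SE 0.14), opposite in sign to that of Slc38a3. Slc38a2 was a DEG in WT-D/3xTg-D and in the interaction, and in neither after adjustment. In WT-D/3xTg-D the call was kept in 8 of 8 fits without a mouse, but lost with the share of reads outside genes as a covariate, where the log2 fold change lay at −0.31, the smallest of a range from −0.40 over the alternatives. In the interaction it was kept in 7 of 16 fits without a mouse, and lost without WT-D2, WT-D3, 3xTg-D1, 3xTg-D2, WT-S2, WT-S3, WT-S4, 3xTg-S3 or 3xTg-S4 and with that covariate. In 3xTg-D/3xTg-S it missed the threshold, which it passed without 3xTg-D4 or without 3xTg-S2. It passed there as well with DESeq2, with no filter on low counts, with a replicate block and with all 16 mice in one fit.

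Slc38a5 was lower in both 3xTg groups than in their WT counterparts. It encodes a second system N carrier (ENSMUSG00000031170.14, chromosome X, 8271133 to 8280179, plus strand). WT-D mice had 1.39, 1.63, 1.35 and 1.63 CPM, and 3xTg-D mice had 0.879, 0.461, 0.425 and 0.436 CPM. WT-S mice had 2.02, 1.40, 0.733 and 1.95 CPM, and 3xTg-S mice had 1.05, 0.572, 0.514 and 0.648 CPM. Neither 3xTg group overlapped with WT-D, whereas WT-S3 lay within the 3xTg-S range. The log2 fold change was −1.45 (SE 0.26) in WT-D/3xTg-D, −1.14 (SE 0.26) in WT-D/3xTg-S and −1.15 (SE 0.36) in WT-S/3xTg-S. With CAY10566 it was 0.33 (SE 0.35) in 3xTg and 0.02 (SE 0.29) in WT mice. Slc38a5 was a DEG in the 3 comparisons of 3xTg with WT mice, and after adjustment in WT-D/3xTg-D. Its call in WT-S/3xTg-S was kept in 2 of 8 fits without a mouse. It was lost without WT-S1, WT-S2, WT-S4, 3xTg-S2, 3xTg-S3 or 3xTg-S4.

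Slc38a1 (ENSMUSG00000023169.15, chromosome 15, 96571418 to 96642913, minus strand), the other system A carrier and the neighbour of Slc38a2 at a gap of 44.5 kb, was a DEG in no comparison. Its group means ± SD were 163 ± 8.02 CPM for WT-D, 160 ± 8.95 for WT-S, 160 ± 22.3 for 3xTg-D and 175 ± 9.46 for 3xTg-S, and the groups overlapped. Its log2 fold change was −0.02 (SE 0.09) in WT-D/3xTg-D, beside the −0.37 of Slc38a2. The difference between these neighbours was not tested.

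The promoter windows of Slc38a2 and Slc38a5 are printed because these carriers were the DEGs of the cycle between vehicle-infused groups. Each window runs from 250 bases before to 50 bases after the RefSeq start (GRCm38.p6), 5′ to 3′ along the gene, with capitals marking the GC box letters GGGCGG on either strand. The Slc38a2 window is chr15:96699679-96699978 on the minus strand, and the Slc38a5 window is chrX:8271131-8271430 on the plus strand, where the RefSeq start lies inside the gene as annotated in the count table.
Slc38a2: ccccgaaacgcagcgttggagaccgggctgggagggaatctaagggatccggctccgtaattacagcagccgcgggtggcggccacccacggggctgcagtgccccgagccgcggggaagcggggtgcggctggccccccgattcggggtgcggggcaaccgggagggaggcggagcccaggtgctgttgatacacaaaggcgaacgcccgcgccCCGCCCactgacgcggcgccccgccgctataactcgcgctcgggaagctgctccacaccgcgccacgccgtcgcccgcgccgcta
Slc38a5: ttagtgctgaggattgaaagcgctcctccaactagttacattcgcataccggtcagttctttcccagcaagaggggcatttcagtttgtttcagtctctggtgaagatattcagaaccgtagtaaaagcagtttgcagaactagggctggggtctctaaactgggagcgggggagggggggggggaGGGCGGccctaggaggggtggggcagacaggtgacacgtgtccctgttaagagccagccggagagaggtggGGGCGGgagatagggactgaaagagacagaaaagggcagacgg
The Slc38a2 window held 1 GC box and the Slc38a5 window held 2. Of 32851 windows of this length in the RefSeq table, 35.7% held at least 1. The CCAAT box (CCAAT, in 37.4% of windows), the TATA box (TATAAA, in 13.6%), the cyclic AMP response element (TGACGTCA, in 1.79%) and the letters TGATGNAAT of an amino acid response element (in 0.965%) were searched on both strands as well, and none of these was in either window. Windows were matched for 7 of the 9 genes, all but Slc38a1 and Slc38a3.

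The glial glutamate transporters and both enzymes had their highest group mean in 3xTg-D, and by edgeR none was a DEG in any comparison. DESeq2, the study's own method, called Slc1a3 in WT-D/3xTg-D, as did edgeR with no filter on low counts, with a replicate block and with all 16 mice in one fit. Slc1a2 (ENSMUSG00000005089.15, chromosome 2, 102658659 to 102790784), which clears most synaptic glutamate in the forebrain, had 3392, 3907, 3871 and 3459 CPM in the WT-D mice. The 3xTg-D mice had 4122, 4321, 4447 and 3634 CPM. Slc1a3 (ENSMUSG00000005360.14, chromosome 15, 8634124 to 8710764), its astrocyte partner, had 778, 899, 877 and 849 CPM in the WT-D mice and 1013, 1126, 1004 and 874 CPM in the 3xTg-D mice. In both genes 3xTg-D1, 3xTg-D2 and 3xTg-D3 lay above all WT-D mice, while 3xTg-D4 lay within their range. The log2 fold change in WT-D/3xTg-D was 0.18 (SE 0.08) for Slc1a2 and 0.24 (SE 0.08) for Slc1a3. In WT-D/3xTg-S it was 0.10 (SE 0.07) and 0.06 (SE 0.07), and in WT-S/3xTg-S 0.06 (SE 0.09) and 0.00 (SE 0.08), in the same order.

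Glul (ENSMUSG00000026473.16, chromosome 1, 153899944 to 153909723), which makes glutamine from glutamate and ammonia, had 1454, 1746, 1825 and 1700 CPM in WT-D. It had 1728, 2284, 1964 and 1644 CPM in 3xTg-D and 1591, 2060, 1846 and 1371 CPM in 3xTg-S. All groups overlapped, and the 3xTg-S mice alone spanned 1371 to 2060 CPM. Glud1 (ENSMUSG00000021794.16, chromosome 14, 34310727 to 34345265) had 298, 294, 296 and 267 CPM in the WT-D mice and 321, 394, 333 and 270 CPM in the 3xTg-D mice, with overlap. The log2 fold change in WT-D/3xTg-D was 0.18 (SE 0.11) for Glul and 0.19 (SE 0.10) for Glud1. In 3xTg-D/3xTg-S it was −0.15 (SE 0.14) and −0.11 (SE 0.12).

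Without 3xTg-D4, the lowest of its group in Slc1a2, Slc1a3, Glul and Glud1, the DEGs of the cycle in WT-D/3xTg-D numbered 5, the additions being Slc1a2, Slc1a3 and Glud1. Over all genes that fit called 914, against 809 with 3xTg-D4 included. The spread of the 3xTg-D group also came from 3xTg-D2, which had the highest Slc1a3, Glul and Glud1 and the lowest Slc38a1, Slc38a2 and Slc1a1 of all 16 mice. The summed level of 13 astrocyte markers was 3960 CPM in that mouse and 2180 to 2932 CPM in every other. The same mouse had the highest sum of 6 microglial markers, 736 CPM against 328 to 572 CPM, and the lowest sum of 8 neuronal markers, 7963 CPM. Their part in these levels was not tested. Slc1a1 (ENSMUSG00000024935.11, chromosome 19, 28835049 to 28913960) differed little between groups, with means ± SD of 180 ± 13.0 CPM for WT-D, 182 ± 13.6 for WT-S, 173 ± 26.1 for 3xTg-D and 174 ± 16.5 for 3xTg-S. Its log2 fold changes lay between −0.08 (SE 0.08) in WT-S/3xTg-S and 0.02 (SE 0.07) in WT-D/WT-S. Of its exon bases, 31.9% overlap 4430402I18Rik on the opposite strand. The strand setting of the counting is not given in the sources used here, so reads of the 2 genes cannot be told apart.

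**Figure D2:**
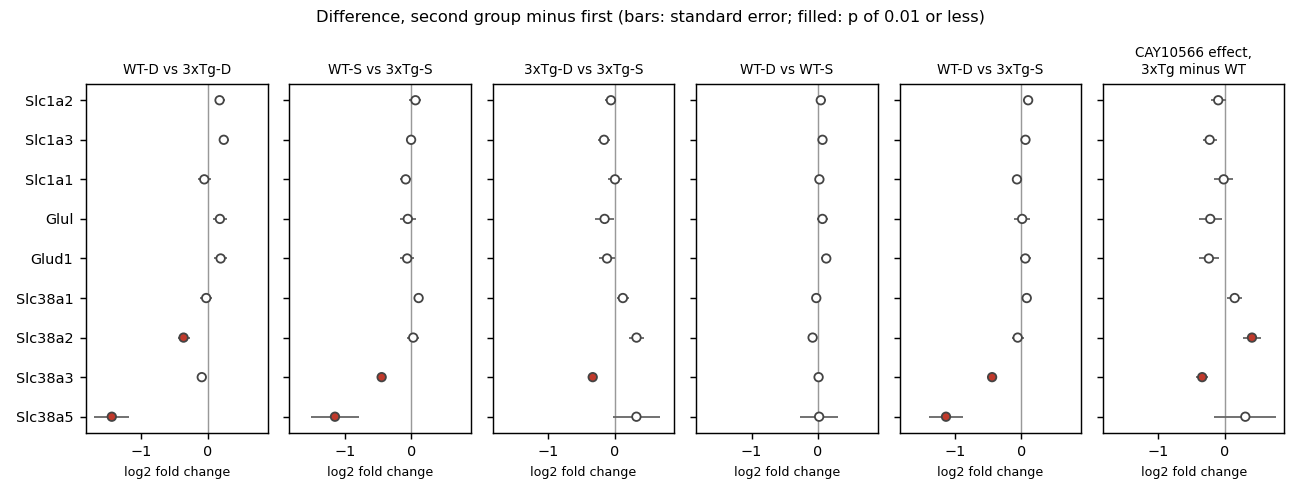
Log2 fold change of each cycle gene (x axes) in the 5 pairwise comparisons and in the interaction, with horizontal bars for the SE. Filled points mark an unadjusted p of 0.01 or less. Slc38a3 is filled wherever 3xTg-S enters and Slc38a5 wherever 3xTg is set against WT, and Slc38a2 has the highest value of the interaction, 0.41.

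Across the cycle, 2 of 9 genes were DEGs in WT-D/3xTg-D (Slc38a2 and Slc38a5), where 4.91% of the 16475 tested genes were. At the adjusted threshold 1 was, against 1.85%. In the comparison of WT-D with 3xTg-S, which uses the same WT-D mice, 2 of 9 were DEGs (Slc38a3 and Slc38a5), against 5.69% of tested genes, and 1 after adjustment, against 1.58%. In WT-S/3xTg-S 2 of 9 were (the same genes, Slc38a3 and Slc38a5), against 4.26%, and 1 after adjustment, against 1.4%. Within 3xTg mice CAY10566 gave 1 DEG of 9 (Slc38a3), where 0.904% of tested genes were DEGs, and within WT mice it gave 0 of 9, where 0.188% were. In WT-D/WT-S edgeR gave 0 of the 9 an unadjusted p under 0.05 and DESeq2 called 0 at 0.01. Without WT-S4 edgeR called Glud1, in a fit that called 516 genes in all, against 31 with WT-S4 included. In the interaction 2 of 9 were DEGs (Slc38a2 and Slc38a3), against 0.595% of tested genes. After adjustment 0 genes of all tested were DEGs in the comparisons of CAY10566 with vehicle and in the interaction by edgeR. All member calls were in the lower direction in the second group except that of Slc38a2 in the interaction.

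Groups without overlap were found for 2 of 9 genes in WT-D/3xTg-D, beside 8.17% of tested genes, and for 2 of 9 between WT-D and 3xTg-S, beside 9.55%. They were found for 1 of 9 (Slc38a3) in WT-S/3xTg-S, beside 6.75%, and for 1 of 9 (Slc38a3) in 3xTg-D/3xTg-S, beside 3.16%. For WT-D/WT-S this held for 0 of 9, beside 1.48%. Because the genes were chosen with these contrasts known, nothing is read from the counts beyond the values themselves. The median log2 fold change of the 9 genes was −0.02 in WT-D/3xTg-D and 0.01 between WT-D and 3xTg-S, beside −4.3e-05 and −0.0045 over all tested genes.

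By the classes that the study applied to DEGs, each of the 3 carriers fell in a different one. Slc38a2 was Restored, a DEG in WT-D/3xTg-D and no longer in WT-D/3xTg-S, a class with 2.27% of tested genes. Slc38a5 was Maintained, a DEG in both (2.64%). Slc38a3 was New, a DEG in WT-D/3xTg-S only (3.05%). Under the 22 settings tried, Slc38a2 and Slc38a5 each kept their class in 20. Slc1a3 was in no class in 17 settings and Restored in 5.

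The remaining genes of glutamate and glutamine metabolism were described from a list of 41, of which 39 were tested. Slc1a7 and Slc38a8 had too few counts. DEGs numbered 1 of 39 in WT-D/3xTg-D, 2 in WT-S/3xTg-S and 3 in WT-D/3xTg-S, all lower in 3xTg mice. Beside the 4.91%, 4.26% and 5.69% of all tested genes, these are counts near the background and no result about the list. In 3xTg-D/3xTg-S, WT-D/WT-S and the interaction edgeR and DESeq2 each called 0, with 2, 1 and 2 genes at an unadjusted p under 0.05 by edgeR. The median log2 fold change of the 39 genes lay between −0.02 and 0.03 over the 6 comparisons, and that of all tested genes between −0.0045 and 0.0095.

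Folh1, the peptidase that frees glutamate from N-acetylaspartylglutamate, fell in all 3 comparisons of 3xTg with WT mice. The WT-D mice had 28.6, 29.3, 28.2 and 24.5 CPM and the 3xTg-D mice 12.5, 12.9, 13.2 and 20.99 CPM. The WT-S mice had 34.4, 30.1, 32.2 and 14.5 CPM and the 3xTg-S mice 12.8, 11.9, 14.3 and 12.7 CPM. WT-S4 lay close to the 3xTg-S mice, and apart from it every WT mouse exceeded every 3xTg mouse. The log2 fold change was −0.89 (SE 0.15, adjusted p = 0.0149) in WT-D/3xTg-D, −1.12 (SE 0.22, adjusted p = 0.0356) in WT-S/3xTg-S and −1.12 (SE 0.09, adjusted p = 6.82e-05) in WT-D/3xTg-S (edgeR's quasi-likelihood test with Benjamini-Hochberg adjustment).

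Slc25a18, a mitochondrial glutamate carrier known from astrocytes, fell in both comparisons of 3xTg-S with WT mice. It had 37.1 to 43.7 CPM for WT-D, 35.6 to 48.8 for WT-S, 35.1 to 37.6 for 3xTg-D and 30.4 to 33.3 for 3xTg-S, where every mouse lay below those of the other groups, as for Slc38a3. The log2 fold change was −0.32 (SE 0.07, adjusted p = 0.0471) in WT-D/3xTg-S and −0.40 (SE 0.11, adjusted p = 0.125) in WT-S/3xTg-S by edgeR's quasi-likelihood test. In 3xTg-D/3xTg-S it was −0.15 (SE 0.06), with an adjusted p of 0.722. Slc6a13, a GABA transporter of meninges and vessels, passed the unadjusted threshold in WT-D/3xTg-S with −1.09 (SE 0.34, adjusted p = 0.166). It had 4.27 to 7.56 CPM for WT-D, 0.8291 to 8.57 for WT-S, 0.714 to 4.49 for 3xTg-D and 1.24 to 4.05 for 3xTg-S, and its mean was lower for 3xTg-D than for 3xTg-S, at 2.19 and 2.56 CPM. The call was lost without WT-D2, WT-D3, WT-D4, 3xTg-S2, 3xTg-S3 or 3xTg-S4, and the log2 fold change ranged from −1.40 to −0.85 over the fits without a mouse. The call of Slc25a18 in WT-S/3xTg-S was lost without WT-S3 or 3xTg-S4.

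Beside Folh1, Slc25a18 and Slc6a13, the listed genes gave no DEG by edgeR. DESeq2 called 1 gene of the GABA branch in WT-D/3xTg-D. The vesicular glutamate transporter Slc17a7, which loads the vesicles of most hippocampal excitatory neurons, had 828 ± 47.3 CPM (SD, n = 4) for WT-D and 837 ± 29.4 CPM for 3xTg-D. Its relative Slc17a6 had 0.41 (SE 0.22) in 3xTg-D/3xTg-S, on the log2 scale. None of the 7 aminotransferase and anaplerosis genes (among them Got1, Got2 and Gpt2) and neither cystine-glutamate exchange gene was a DEG. The cystine-glutamate exchanger Slc7a11 had −0.43 (SE 0.17, adjusted p = 0.286 in edgeR's quasi-likelihood fit) in WT-D/3xTg-S. In the GABA branch, the glutamate decarboxylases Gad1 and Gad2 had 0.03 (SE 0.07) and 0.10 (SE 0.08) in WT-D/3xTg-D.

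**Figure D3:**
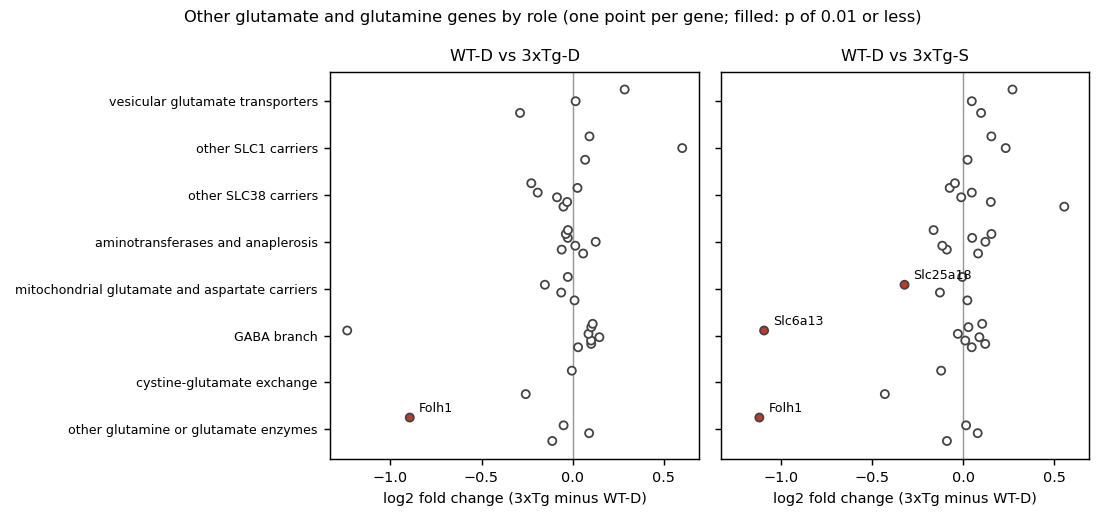
Log2 fold change of tested genes of the wider list, in the roles shown, in 3xTg-D (left) and 3xTg-S (right) relative to WT-D (x axes), grouped by role (y axis). Each point is a gene, and filled points mark an unadjusted p of 0.01 or less. Folh1 is filled in both comparisons, at −0.89 and −1.12, and Slc25a18 and Slc6a13 in the second.

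Markers of the cells that could carry these transcripts were set beside them. Of the 13 astrocyte markers, among them Aqp4, Gfap and Aldh1l1, 0 were DEGs by edgeR in any of the 6 comparisons, with 0 to 5 at an unadjusted p under 0.05. With 0.188 to 5.69% of all tested genes called, so few markers give hardly a call at the background share, and nothing is read from this count. DESeq2 called 1 in 3xTg-D/3xTg-S and 1 in the interaction. In 3xTg-D/3xTg-S, where Slc38a3 had −0.33, all 13 astrocyte log2 fold changes were below 0, with a median of −0.22. So were those of all 6 microglial markers, with a median of −0.35, and of all 6 oligodendrocyte markers, with a median of −0.36, beside 0.01 over all tested genes. In the interaction all 13 astrocyte values were below 0 too, with a median of −0.20. In WT-D/3xTg-D, where Slc38a3 had −0.09, 2 of the 13 were, with a median of 0.19. In WT-D/3xTg-S and WT-S/3xTg-S, where Slc38a3 had −0.44 and −0.45, 10 and 9 were, with medians of −0.06 and −0.09. Summed astrocyte markers ranged from 2414 to 2742 CPM for WT-D, 2421 to 2897 for WT-S, 2557 to 3960 for 3xTg-D and 2180 to 2927 for 3xTg-S. The ranges overlapped between groups, and the part of these cells in the level of Slc38a3 was not tested.

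Ependymal markers summed lowest in 3xTg-S, the group where Slc38a3 was lowest too. Of 4 such genes, Foxj1, Ccdc153 and Rarres2 were DEGs and lower in 3xTg-S in all 3 comparisons that include this group, with Foxj1 at −1.25 (SE 0.17, adjusted p = 0.00448 in edgeR's quasi-likelihood fit) in WT-D/3xTg-S. The 4 genes summed to 18.3 to 27.4 CPM for WT-D, 15.7 to 24.2 for WT-S, 15.1 to 23.2 for 3xTg-D and 9.99 to 11.4 CPM for 3xTg-S. The last group lay below every other mouse, as it did for Slc38a3, and none of the 4 markers was at 0. Foxj1 was also a DEG and lower in WT-D/3xTg-D, where Slc38a3 was not a DEG. The part of ependymal cells in the level of Slc38a3 was not tested.

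Of 6 oligodendrocyte markers, 3 rose in WT-D/3xTg-D, Mbp and Mobp among them, with Mbp at 0.49 (SE 0.09, adjusted p = 0.0214 in edgeR's quasi-likelihood fit). Mag and Cnp were DEGs and lower in 3xTg-D/3xTg-S, and Mag and Mog in WT-D/3xTg-S. Summed, the 6 genes had 4267 to 5057 CPM for WT-D, 3365 to 5196 for WT-S, 5531 to 6607 for 3xTg-D and 4228 to 6620 for 3xTg-S. Of 8 endothelial markers Itm2a was a DEG and lower in each comparison of 3xTg with WT mice. All 8 log2 fold changes were below 0 in WT-D/3xTg-D and in WT-S/3xTg-S, with medians of −0.16 and −0.19. In WT-D/3xTg-S 6 of 8 were, with a median of −0.05. The endothelial sum was 214.6 to 251 CPM for WT-D and 196 to 297 for WT-S. It was 182 to 218 for 3xTg-D and 193 to 235 for 3xTg-S. Of 7 choroid plexus markers, 6 of them tested, Ttr was a DEG and lower in 3xTg-D and 3xTg-S than in WT-D, with overlap. The WT-D mice had 1.82, 31.7, 22.2 and 638 CPM of Ttr. WT-D1 lay within the ranges of 3xTg-D, 1.36 to 13.3 CPM, and 3xTg-S, 0.756 to 5.06 CPM. The choroid plexus sum was 33.2 to 749 CPM for WT-D and 31.4 to 299.7 for WT-S. It was 33.7 to 52.1 for 3xTg-D and 36.1 to 41.2 for 3xTg-S, with Kcnj13 and Folr1 at 0 in some mice. Of 6 meningeal fibroblast markers Col1a2 was lower in WT-D/3xTg-S. Of 8 neuronal and 6 microglial markers 0 were DEGs by edgeR or DESeq2, and 1 neuronal marker had an unadjusted p under 0.05 in a single comparison, WT-S/3xTg-S. The part of these cells in the 9 genes was not tested. With WT-D4 and WT-S1 left out together, Slc38a3 kept its call in every comparison where it had one, Slc38a2 kept both of its calls, and Slc38a5 lost its call in WT-S/3xTg-S and kept the other 2.

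**Figure D4:**
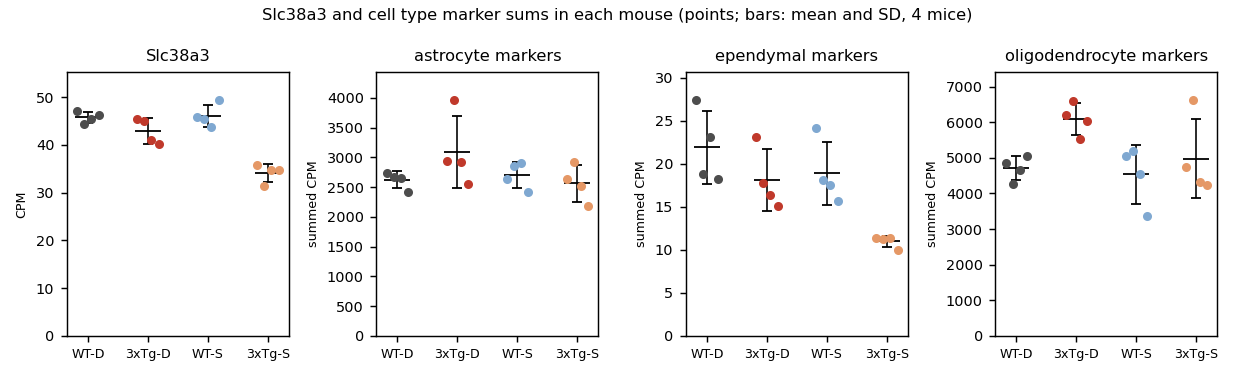
Slc38a3 in CPM and summed CPM of 13 astrocyte, 4 ependymal and 6 oligodendrocyte markers (y axes from 0) in each mouse, by group (x axes), with mean and SD of 4 mice. In 3xTg-S both Slc38a3, at 31.5 to 35.8 CPM, and the ependymal sum, at 9.99 to 11.4 CPM, lie below all other mice, while the astrocyte sums overlap.

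The genes most like Slc38a3 over the 16 mice, by Pearson's r of log2 CPM, were Gucy2e (r = 0.900), Pltp (0.890), Cxcl5 (0.885), Acy1 (0.882) and Bdh2 (0.881), followed by Mxra8, Hhatl, 2410004P03Rik, Gng8 and Gm10073 (0.874 to 0.858). These mice share their groups, so the r values include the low level of 3xTg-S. After subtraction of each group's mean, the highest values were those of Slc12a7 (0.905), 5930430L01Rik (0.861) and Npr1 (0.855). None of the first 10 genes was among the first 10 here. Of the cycle genes Slc38a5 was the most like Slc38a3 in both, at 0.601 and 0.598, on few reads.

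The genes near Slc38a3 on chromosome 9 were set beside it. Of 67 genes that start within 500 kb, 35 were tested. DEGs were Sema3b and Zmynd10 in WT-S/3xTg-S, where Slc38a3 differed most, and again in WT-D/3xTg-S. In WT-D/3xTg-D they were Zmynd10, Cyb561d2 and 6430571L13Rik, and the 2 comparisons of CAY10566 with vehicle and the interaction had 0. By edgeR's quasi-likelihood test Sema3b, which encodes a secreted semaphorin, had −1.18 (SE 0.27, adjusted p = 0.0765) in WT-S/3xTg-S, and Zmynd10, needed for motile cilia, had −0.73 (SE 0.19, adjusted p = 0.113). Beside the share of all tested genes called in each comparison, 4.26%, 5.69% and 4.91% in this order and at most 0.904% in the others, these numbers of 35 were near the background.

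**Figure D5:**
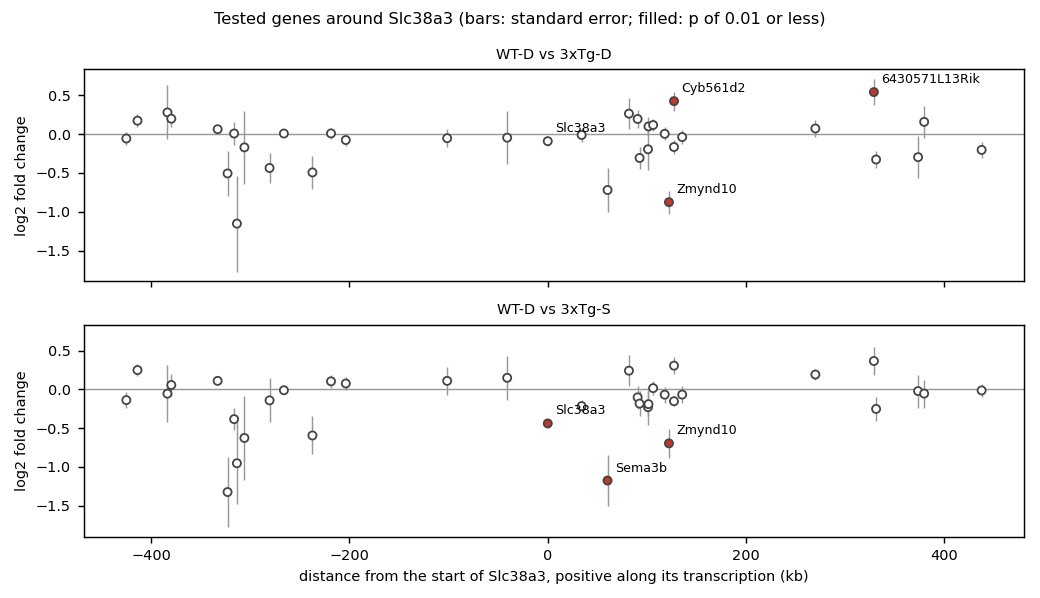
Log2 fold change (y axes, bars SE) of tested genes in 3xTg-D (top) and 3xTg-S (bottom) relative to WT-D against their distance in kb from the start of Slc38a3 (x axis), positive along its transcription. Filled points mark an unadjusted p of 0.01 or less. Slc38a3 is unfilled at −0.09 above and filled at −0.44 below, and Zmynd10 is filled in both.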

How the data were processed

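Bulk RNA-seq of 16 mouse hippocampi was used. The authors trimmed single-end reads with Trimmomatic 0.35, aligned them with STAR 2.5.1b to GRCm38 (per the submitters' processing notes and the study's methods) and deposited raw counts per gene, without normalization. Use of molecular identifiers in the counting is not given in the sources used here. Reads outside genes were 7.82 to 15.1% per mouse and stayed out of library sizes. The members and lists were chosen with earlier results of these data known.

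Counts were analysed in R 4.3.3 with edgeR 4.0.16: filterByExpr (minimum count 10, minimum total 15) left 16475 of 33942 genes with a count, TMM normalized them, and pairs of groups were compared by the quasi-likelihood test (two-sided). SE was the log2 fold change over the square root of F. The study's own method, DESeq2 with DEGES size factors, was rebuilt in DESeq2 1.42.0 as an alternative. The others were median-ratio size factors, no filter or at least 10 counts in every mouse, a replicate block, a covariate, all 16 mice in one fit, the adjusted threshold and each mouse left out. Leaving out WT-D4 and WT-S1 together was chosen after seeing the data. The edgeR and DESeq2 fits were tested on simulated counts. Replicate libraries differed by more than counting noise (chi-square per degree of freedom 3.91 to 47.4). The labels do not say whether the mice came from separate litters, so p-values measure the spread between these mice.

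Named genes were the 9 members, every listed cycle gene that was a DEG in a comparison, the 10 genes most like Slc38a3, and called neighbours within 500 kb in the comparison where it differed most. Genes named outside this rule, among them the other neighbours, Slc17a6, Slc17a7, Slc7a11, Gad1 and Gad2, were named after their values were seen. Some listed genes are counted but not reported singly here. CPM per kb used Gencode M21 exon lengths.

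Replicate numbers 1 to 4 come from the titles. Deviations from the group means correlated between same-numbered mice at 0.114 to 0.340 in WT-D/WT-S and 0.0616 to 0.257 in WT-D/3xTg-S. The values were 0.0158 to 0.391 in 3xTg-D/3xTg-S, −0.101 to 0.496 in WT-S/3xTg-S and −0.096 to 0.185 in WT-D/3xTg-D. What the numbers stand for was not tested, and the main fits used no block. No cycle member was called in WT-D/WT-S with or without the block. Elsewhere the block added Slc1a3 to the DEGs in WT-D/3xTg-D and Slc38a2 in 3xTg-D/3xTg-S.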

Additional observations from a re-analysis of the deposited data

Results flagged for a closer look

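For 2 carriers the genotype by treatment interaction over 16 mice passed the unadjusted threshold, at 0.41 for Slc38a2 and −0.34 for Slc38a3 on the log2 scale. Neither passed after Benjamini-Hochberg adjustment over all genes, and the call of Slc38a2 was lost in 9 of 16 fits without a mouse. Both genes were chosen with these contrasts known, so the values are a description and no independent evidence of a difference between genotypes.

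A single mouse stood far from the other 3 of its group in 3 cases, by Dixon's criterion. For Slc38a5, 3xTg-D1 had 0.879 CPM, the highest of 3xTg-D. For Glud1, WT-D4 had 267 CPM, the lowest of WT-D. For Folh1, 3xTg-D4 had 20.99 CPM, the highest of 3xTg-D. Among 52 groups examined, chance alone is known to give such cases in about 1 group of 20.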

How the results depend on the processing

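No called result reversed, while uncalled log2 fold changes near 0 changed sign over the alternatives, for example from −0.03 to 0.07 for Slc38a1 and −0.06 to 0.05 for Slc1a1 in WT-D/3xTg-D, and −0.04 to 0.06 for Slc38a2 in WT-S/3xTg-S. Of the 9 cycle genes, 1 was a DEG in each of the 3 comparisons of 3xTg with WT mice at the adjusted threshold, and 0 in 3xTg-D/3xTg-S and the interaction. With at least 10 counts in every mouse, a filter that removes Slc38a5, 1 was a DEG in each of the same 3. With the share of reads outside genes as a covariate, 1 was left in WT-D/3xTg-D (Slc38a5) and 1 in the interaction (Slc38a3). In WT-D/3xTg-D it was 3, Slc1a3 being added, with DESeq2, with no filter, with all 16 mice in one fit and with the replicate block. In 3xTg-D/3xTg-S the number was 2, Slc38a2 being added, with DESeq2, with no filter, with all 16 mice in one fit and with the replicate block. Without WT-D4 and WT-S1 it was 1 in WT-S/3xTg-S. The cause was not tested where none is named. Over the fits without 1 mouse the number of the 9 ranged from 2 to 5 in WT-D/3xTg-D, 1 to 2 in WT-S/3xTg-S, 1 to 2 in 3xTg-D/3xTg-S, 0 to 1 in WT-D/WT-S and 1 to 3 in the interaction, and it was 2 throughout in WT-D/3xTg-S.

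Of the 39 other genes, DEGs in WT-D/3xTg-D numbered 2 with DESeq2, no filter, the strict filter, the replicate block or without WT-D4 and WT-S1, and 3 with the covariate. In WT-S/3xTg-S they numbered 1 at the adjusted threshold and 4 with the replicate block, which also gave 1 in 3xTg-D/3xTg-S and 1 in the interaction. Over fits without 1 mouse they ranged from 1 to 2, 1 to 2, 0 to 0, 0 to 1, 2 to 4 and 0 to 1 for 3xTg-D against WT-D, 3xTg-S against WT-S, CAY10566 in 3xTg, CAY10566 in WT, 3xTg-S against WT-D and the interaction, in this order.

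Over all genes, the replicate block gave 1339 DEGs in place of 702 in WT-S/3xTg-S, 1133 in place of 149 in 3xTg-D/3xTg-S, 115 in place of 31 in WT-D/WT-S and 624 in place of 98 in the interaction. In WT-D/WT-S and in WT-D/3xTg-S 7 of 8 mice correlated best with their own number, and in the other pairwise comparisons 3 to 6 of 8 did. With no filter the counts were 1077, 355, 180 and 208 in the same order. In 3xTg-D/3xTg-S 1 fit of all mice gave 249 DEGs, and fits without 1 mouse gave 68 (without 3xTg-S4) to 802 (without 3xTg-S2). In WT-D/WT-S the fits without 1 mouse gave 22 to 516 (without WT-S4), and DESeq2, the strict filter, the covariate and 1 fit of all mice gave 48, 20, 49 and 48. In the interaction the fits without 1 mouse gave 56 (without 3xTg-S4) to 487 (without 3xTg-S2), and leaving out WT-D4 and WT-S1 gave 56. In WT-D/3xTg-S leaving out 3xTg-S2 gave 1545 in place of 937. At the adjusted threshold the counts over all genes were 305, 230 and 261 in the comparisons of 3xTg-D with WT-D, 3xTg-S with WT-S and 3xTg-S with WT-D, and 0 in the others. The low reads of Slc38a5, 8 to 43 per mouse, limit its precision most.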
